A study of Homo sapiens with 6 samples.

Results

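The genes described here are the matrix metalloproteinases (MMP), the ADAM and ADAMTS metalloproteinases, the tissue inhibitors of metalloproteinases (TIMP1 to TIMP4), the plasminogen activators PLAU and PLAT, and the receptor PLAUR. They were picked out by gene symbol, but the choice was made with earlier results of these data known. Of the 19973 genes with deposited counts, 69 qualified: 23 MMPs, 20 ADAMs, 19 ADAMTS genes, 4 TIMPs and 3 genes of plasminogen activation. Their transcripts were compared by RNA-seq between 2 stable derivatives of OVCAR3, a long-established line from a human ovarian carcinoma, 1 carrying shNC, a control hairpin, and 1 carrying shNUF2, a hairpin against the kinetochore gene NUF2. The labels give the shNC cells as WT and the shNUF2 cells as NUF2 knockdown. Both were transfected and selected with puromycin as stable lines, and each group has 3 libraries. A single hairpin sequence against NUF2 was used, and the sources do not say whether the stable lines are clones or pools, or whether replicate libraries derive from separate cultures. The p-values below therefore measure the spread between these libraries, which may be technical.

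MMPs are zinc-dependent endopeptidases that cut collagens, gelatins, proteoglycans and many cell surface proteins, and most are secreted or membrane-bound as inactive zymogens. ADAMs are membrane-anchored relatives known for releasing growth factors, cytokines and receptors from the cell surface, and ADAMTS proteins are secreted relatives that cut proteoglycans, procollagens and blood proteins. TIMPs bind and block these enzymes. PLAU (urokinase) bound to its receptor PLAUR, and PLAT (tissue plasminogen activator), turn plasminogen into plasmin, a serine proteinase that degrades fibrin and can activate several MMP zymogens. In ovarian carcinoma these enzymes are studied for their part in invasion of the peritoneal matrix.

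The libraries held between 13057534 and 16995452 counted reads, and these 69 genes together took 24950, 26274 and 29148 reads in the shNC libraries (replicates 1, 2 and 3) but 31117, 29096 and 33622 in the shNUF2 libraries, an order kept for all counts below. NUF2 itself had 903, 1096 and 1092 reads with shNC, against 281, 290 and 384 with shNUF2, a log2 fold change of -1.51 (standard error, SE, 0.08, adjusted p = 2.17e-15 by edgeR's quasi-likelihood test). In the following, a gene "rose" or "fell" when its Benjamini-Hochberg adjusted p over all genes tested was under 0.05. It met the DEG rule, for differentially expressed genes, when its log2 fold change lay beyond 1 in either direction and its unadjusted p was under 0.05. Normalized counts are CPM, counts scaled to a common library size after TMM normalization, and levels of different genes are compared only in FPKM, which divides by gene length. Of 8 ovarian carcinoma markers, all had reads, and their summed level ran from 878 to 936 CPM with shNC and from 1109 to 1163 CPM with shNUF2. KRT8, KRT18, MSLN, MUC16 and PAX8 had over 100 reads in every library, where KRT8 rose by 1.04, PAX8 by 0.64 and KRT18 by 0.55 on the log2 scale and MSLN and MUC16 fell by 0.75 each. EPCAM, which rose by 0.69, was low at 44 to 91 reads and CDH1 at 9 to 33 reads in a library, and WT1, a marker of serous ovarian carcinoma, was nearly absent (at most 7 reads in a library).

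Enough reads for a test were found for 40 of the 69 members, and 19 of the 40 rose and 7 fell with shNUF2. Among all 12874 genes tested, 33.9% rose and 33.8% fell, and 67.6% did either, against 26 of 40 members (65.0%), so that a call by adjusted p alone is common in this comparison. By the DEG rule 12 members (30.0% of those tested) were higher and 3 (7.5%) were lower, beside 9.41% and 4.16% of all genes tested. The members were chosen with earlier results of these data known, so their distance from these shares is no independent result. Without any overlap between the groups were 27 of the 40 members, or 67.5%, which is near the 70.6% of all genes tested. In RNA from whole cultures, fewer cells of a type and less RNA per cell cannot be told apart. The median log2 fold change was 0.22 over the members tested and -0.01 over all genes tested. PLAT and ADAMTS4 reached the filter's level of 0.682 CPM in only 1 and 0 shNC libraries and entered the test through their shNUF2 libraries. ADAMTS4, with 0 shNC libraries at the level, had to differ, and for PLAT the filter favoured a difference without fixing it. MMP1, MMP9 and ADAM28 reached the level in 2 shNC libraries and also needed their shNUF2 libraries to enter. Of the 33 members at this level in all 6 libraries, 7 were higher by the DEG rule. The share among all genes at this level in all 6 libraries was not computed, so this count stands without a background.

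**Figure D1:**
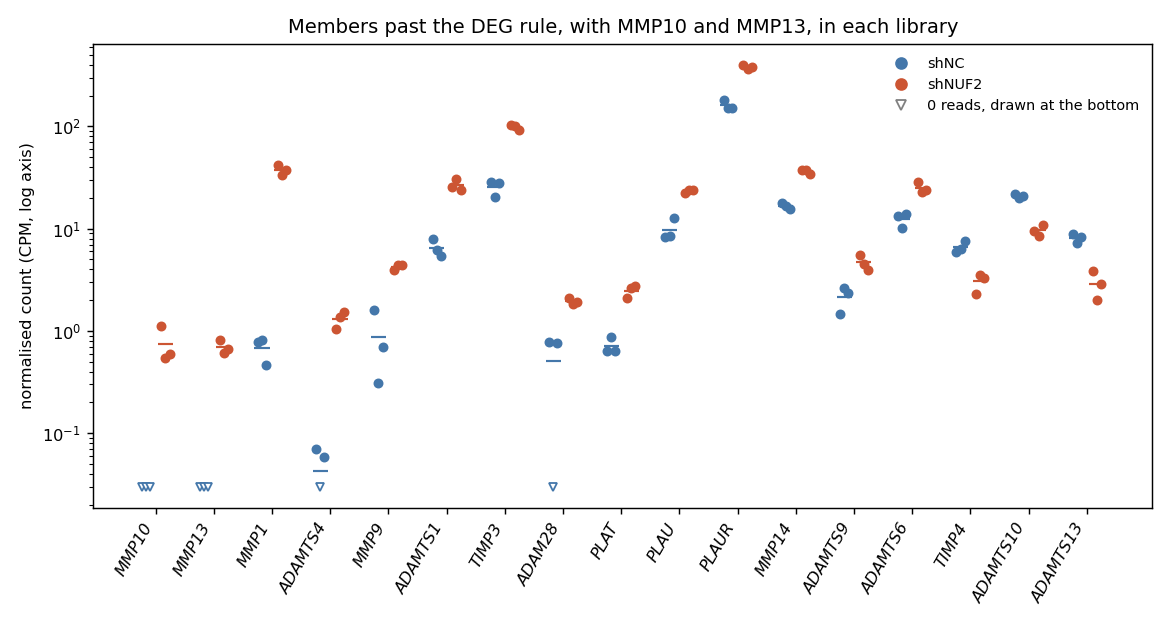
Normalized counts (CPM, log axis) of the 15 members that met the DEG rule and of MMP10 and MMP13, with 1 point per library, a bar at the group mean and open triangles for libraries with 0 reads. In 12 genes that met the rule all shNUF2 points lie above all shNC points, in TIMP4, ADAMTS10 and ADAMTS13 all lie below, and MMP10 and MMP13 have reads in the shNUF2 libraries only.

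The largest change of any member tested was in MMP1, interstitial collagenase, which cleaves fibrillar collagens. MMP1 (ENSG00000196611, chromosome 11 of GRCh38 from 102789919 to 102798160, minus strand) had 11, 13 and 8 reads in the shNC libraries, against 560, 439 and 562 reads in the shNUF2 libraries. The groups lay far apart, with 0.684 ± 0.191 CPM with shNC (SD, n = 3) and 37.6 ± 3.89 CPM with shNUF2 (SD, n = 3). This is a log2 fold change of 5.78 (SE 0.17, adjusted p = 2.98e-20 by edgeR's quasi-likelihood test), or 54.9-fold higher. MMP1 reached the filter's level in 2 shNC libraries and needed its shNUF2 libraries to enter, so its test is given as a description. The exact two-sided permutation test gave p = 0.10, the smallest that 3 libraries against 3 allow. Per gene length, MMP1 was the 9th of the 23 MMPs with shNC (0.351 ± 0.0983 FPKM, SD, n = 3) and the 1st with shNUF2 (18.8 ± 1.77 FPKM, SD, n = 3). Its share of the summed FPKM of all MMPs was 0.681% with shNC and 26.2% with shNUF2. The other 2 collagenases had too few reads for the test. MMP13 was at 0 in all shNC libraries, whereas the shNUF2 libraries gave 11, 8 and 10 reads. When set against 3 counts over the whole shNC group this is 11-fold higher, without the counting error of the shNUF2 reads. MMP8, the neutrophil collagenase, had 0 reads in all 6 libraries.

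MMP1, MMP13 and 7 further MMPs lie side by side within 435 kb of chromosome 11, from 102520508 to 102955732 in the coordinates of the table, with no other listed gene between them. Together the 9 genes had 49 reads in the shNC libraries, against 1644 in the shNUF2 libraries. MMP10, stromelysin 2, which degrades proteoglycans and can activate procollagenases, lies 9.29 kb from MMP1. Its shNC libraries were all at 0, and those of shNUF2 gave 15, 7 and 9 reads, 11.8-fold higher against 3 counts over the shNC group. MMP12, the macrophage metalloelastase, had 0 reads with shNC, against 1, 0 and 7 reads with shNUF2, so that 1 library carries nearly all of its reads. Set against 3 counts over the shNC group, MMP12 was 3.04-fold higher, with overlapping groups. MMP3, stromelysin 1, on the other side of MMP1 at a distance of 37.6 kb, had 2 reads in 1 shNUF2 library and 0 in every other library. MMP20, MMP27 and MMP8 had 0 reads throughout, and MMP7, matrilysin, had 3, 3 and 11 reads with shNC, against 6, 5 and 2 with shNUF2, with overlapping groups. High levels with shNUF2 were thus found at MMP1, and low counts in every shNUF2 library with 0 reads in every shNC library at MMP10 and MMP13. The genes beside the cluster, named here after the cluster's values had been seen, moved far less than MMP1, though all 4 passed the test: BIRC2 had a log2 fold change of 0.31 (SE 0.05), TMEM123 of -0.16 (0.04), DCUN1D5 of -0.27 (0.07) and DYNC2H1 of -0.41 (0.12). An annotated pseudogene transcript, WTAPP1, runs on the opposite strand across MMP1 and MMP10. The kit was strand-specific, but the strand setting of the counting is not given in the sources used here.

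**Figure D2:**
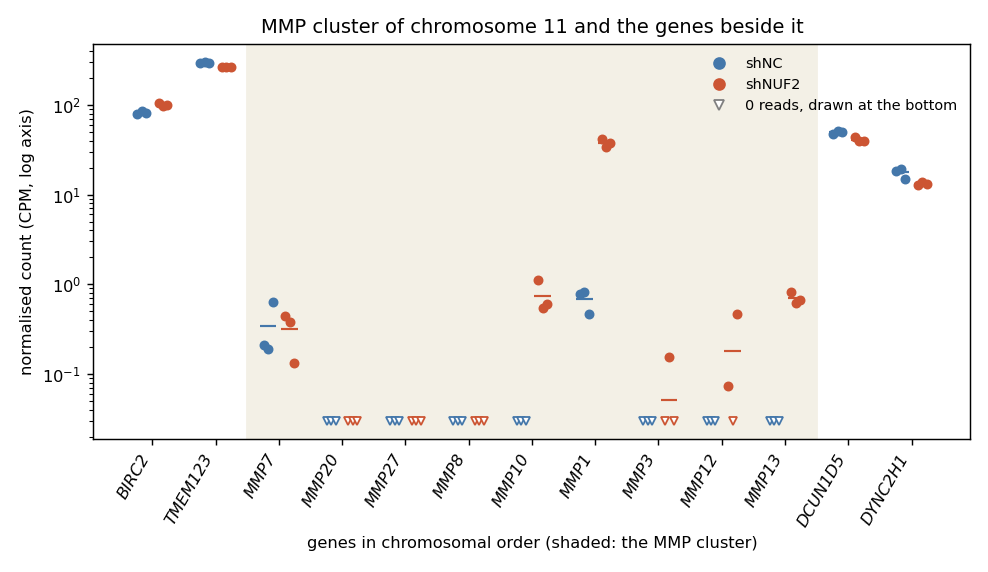
Normalized counts (CPM, log axis) of the 9 MMPs of the chromosome 11 cluster (shaded) and the nearest listed genes on either side, in chromosomal order, with 1 point per library, bars at group means and open triangles at 0 reads. MMP1 stands at 0.684 CPM with shNC and 37.6 CPM with shNUF2 on average, while MMP20, MMP27 and MMP8 have 0 reads in every library.

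The 250 bases before the RefSeq start of MMP10 are printed because it neighbours MMP1 and had reads in the shNUF2 libraries alone. The run is from RefSeq on GRCh38.p14, minus strand, chr11:102780629-102780878, 5′ to 3′, and the capitals mark a TATAAA word that begins 31 bases before the start.
MMP10: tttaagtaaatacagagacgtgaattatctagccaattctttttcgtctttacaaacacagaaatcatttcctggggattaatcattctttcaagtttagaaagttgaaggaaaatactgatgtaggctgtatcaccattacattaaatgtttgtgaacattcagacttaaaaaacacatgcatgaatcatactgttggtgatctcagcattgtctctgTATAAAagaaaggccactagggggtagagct
The word TATAAA on either strand was found in 10.7% of the 35116 listed starts in windows of this length, and in 7 of the 41 members that have an entry.

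The gelatinases degrade denatured collagen and basement membrane collagen. MMP9 rose, with 23, 5 and 12 reads in the shNC libraries, against 53, 57 and 67 reads in the shNUF2 libraries. Every shNUF2 library was above every shNC library, and shNC replicate 1 stood well above the other shNC libraries. The log2 fold change of MMP9 was 2.31 (SE 0.35, adjusted p = 1.88e-06 by edgeR's quasi-likelihood test), and 3.03 without shNC replicate 1. MMP9 reached the filter's level in 2 shNC libraries and needed its shNUF2 libraries to enter, so its test is given as a description. MMP2 had 334, 339 and 507 reads with shNC, against 438, 382 and 385 with shNUF2, and the groups overlapped. Its log2 fold change of 0.23 (SE 0.11, adjusted p = 0.0601 by the same test) did not pass, but it passed without shNC replicate 3 (0.38, adjusted p = 0.00235) and without shNUF2 replicate 3 (0.32, adjusted p = 0.0181). In FPKM, MMP2 remained above MMP9 in both groups, with 6.11 ± 0.693 against 1.80 ± 0.134 in the shNUF2 libraries (SD, n = 3).

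Of the membrane-type MMPs, which act at the cell surface, MMP14 rose, MMP15 fell, and MMP17, MMP24 and MMP25 did not pass the test. MMP14 (MT1-MMP), known for cutting pericellular collagen and for activating MMP2, had 253, 267 and 265 reads with shNC, against 503, 491 and 521 with shNUF2. The groups were narrow and well apart, with a log2 fold change of 1.14 (SE 0.09, adjusted p = 1.74e-11 by edgeR's quasi-likelihood test). MMP15 (MT2-MMP), the MMP with the highest level in the shNC libraries, had 1361, 1428 and 1511 reads there and 959, 895 and 992 with shNUF2, a log2 fold change of -0.41 (SE 0.06). In FPKM, MMP15 was at 21.8 ± 0.919 with shNC and 16.0 ± 0.541 with shNUF2 (SD, n = 3). In each shNUF2 library it lay below MMP1, whose lowest value was 17.1 FPKM. MMP17, anchored by a lipid, had a log2 fold change of -0.11 (SE 0.07, adjusted p = 0.16), but of -0.17 with an adjusted p of 0.0435 without shNUF2 replicate 3, both by edgeR. MMP24 had 0.41 (0.18, adjusted p = 0.0522) and MMP25 had 0.01 (0.42, adjusted p = 0.982) by the same edgeR test. MMP16 had at most 5 reads in a library and was not tested.

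Among the remaining MMPs, MMP19, a secreted enzyme of basement membranes, rose with 161, 164 and 186 reads in the shNC libraries, against 258, 245 and 288 in the shNUF2 libraries, without overlap. The fitted change was 0.82 on the log2 scale (SE 0.11, adjusted p = 3.20e-07 by edgeR's quasi-likelihood test). MMP28, epilysin, had 54, 24 and 31 reads with shNC, against 18, 14 and 23 with shNUF2, and its fall rested on shNC replicate 1. MMP28 had a log2 fold change of -0.82 (SE 0.36, adjusted p = 0.0469), and -0.33 with an adjusted p of 0.471 without that library by edgeR. Leaving out any 1 of the shNUF2 libraries also ended the call, with adjusted p from 0.055 to 0.142. Without shNC replicate 2 it met the DEG rule instead (-1.06, adjusted p = 0.0173 by edgeR). MMP11, stromelysin 3, the only stromelysin tested, had 0.07 (0.46, adjusted p = 0.891 by the same test), with 5, 11 and 26 reads in the shNUF2 libraries and 17, 11 and 17 in the shNC libraries. Without shNUF2 replicate 3 the log2 fold change of MMP11 turned to -0.65, and it passed in no setting.

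**Figure D3:**
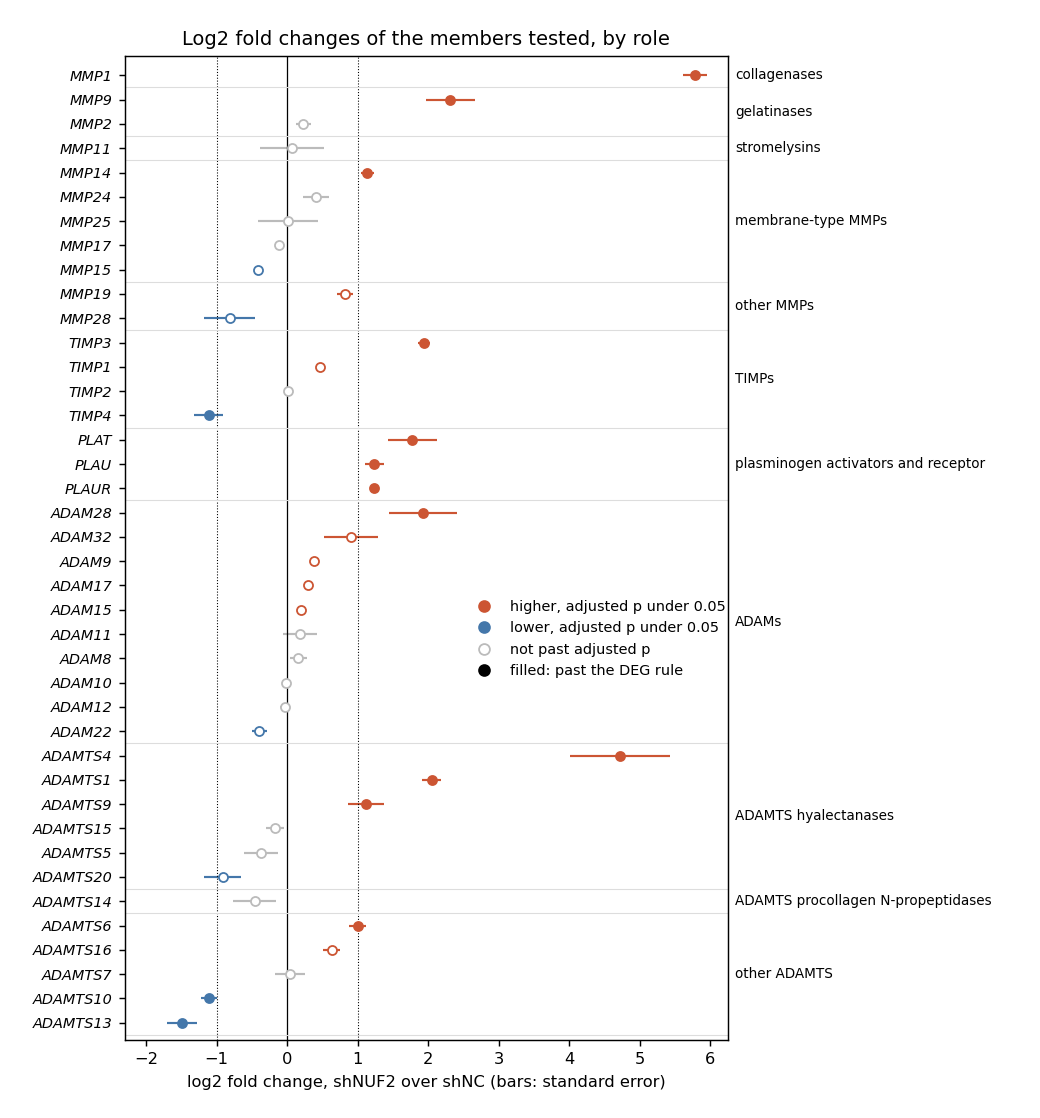
Log2 fold changes of the 40 members tested, shNUF2 over shNC, with standard errors, grouped by role, filled where the DEG rule was met and grey where the adjusted p did not pass. MMP1 at 5.78 and ADAMTS4 at 4.72 stand to the right of every other member, most ADAMs lie between the dotted lines at 1 and -1, and the TIMPs spread from -1.11 to 1.94.

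Of the 3 genes of plasminogen activation, PLAU and PLAUR rose and met the DEG rule, and PLAT was higher in every shNUF2 library. PLAUR (ENSG00000011422, chromosome 19 from 43646095 to 43670547, minus strand), the urokinase receptor, had 2604, 2404 and 2601 reads in the shNC libraries, against 5363, 4710 and 5695 in the shNUF2 libraries. The groups were clearly apart, at 162 ± 18.7 and 380 ± 17.8 CPM (SD, n = 3). PLAUR had a log2 fold change of 1.23 (SE 0.06, adjusted p = 2.89e-16 by edgeR's quasi-likelihood test). PLAU (ENSG00000122861, chromosome 10 from 73909177 to 73917496, plus strand), the ligand of that receptor, had 119, 135 and 217 reads with shNC, against 298, 310 and 361 with shNUF2. The highest shNC library, replicate 3, remained below the lowest shNUF2 library, and the log2 fold change was 1.24 (SE 0.13, adjusted p = 3.90e-09 by the same test). PLAT, known for dissolving fibrin clots, was far lower in level, with 9, 14 and 11 reads with shNC, against 28, 34 and 41 with shNUF2. PLAT reached the filter's level in 1 shNC library and entered the test through its shNUF2 libraries, which favoured a difference. Its fitted log2 fold change of 1.78 is therefore given as a description (SE 0.35, adjusted p = 6.35e-05 by the same test).
In FPKM the receptor was far above its ligand in both groups. PLAUR was at 36.7 ± 4.07 with shNC and 84.0 ± 3.14 with shNUF2, PLAU at 3.37 ± 0.833 and 7.80 ± 0.416, and PLAT at 0.0934 ± 0.0185 and 0.314 ± 0.0463 (SD, n = 3 in each). With shNC only TIMP1 and TIMP2 were above PLAUR among the members, and with shNUF2 only TIMP1.

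The 250 bases before the starts of PLAUR and PLAU are shown because ligand and receptor rose by nearly the same factor. They are RefSeq sequences on GRCh38.p14, printed 5′ to 3′ on the gene's strand: chr19:43670170-43670419 (minus strand) for PLAUR, and chr10:73910360-73910609 and chr10:73910882-73911131 (plus strand) for the first and the second listed start of PLAU. Capitals mark the word TGAGTCA, the binding sequence of AP-1 factors, which in PLAUR begins 186 bases before the start.
PLAUR: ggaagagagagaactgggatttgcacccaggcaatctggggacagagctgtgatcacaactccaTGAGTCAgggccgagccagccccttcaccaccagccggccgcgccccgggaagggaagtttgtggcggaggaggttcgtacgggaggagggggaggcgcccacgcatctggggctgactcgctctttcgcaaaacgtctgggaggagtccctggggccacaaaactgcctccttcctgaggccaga
PLAU, first start: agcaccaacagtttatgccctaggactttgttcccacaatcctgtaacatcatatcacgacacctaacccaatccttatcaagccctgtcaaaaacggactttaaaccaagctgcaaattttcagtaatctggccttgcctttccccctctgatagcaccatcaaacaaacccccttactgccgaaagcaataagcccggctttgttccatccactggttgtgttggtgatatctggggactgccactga
PLAU, second start: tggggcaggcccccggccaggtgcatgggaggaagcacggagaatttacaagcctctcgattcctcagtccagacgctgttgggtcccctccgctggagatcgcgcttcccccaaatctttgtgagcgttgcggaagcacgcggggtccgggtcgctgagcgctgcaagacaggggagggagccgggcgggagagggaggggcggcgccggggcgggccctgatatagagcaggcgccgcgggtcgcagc
TGAGTCA and its reverse complement TGACTCA were searched on both strands, and 4.20% of the 35116 listed starts had either word in a window of this length. Among the members they were found in 2 of the 41 with an entry, PLAUR and MMP7. Of the 12 members that were higher by the DEG rule, 5 had an entry and 1 of these, PLAUR, held the word. A match is only a match of letters, and these windows say nothing of sites farther away.

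Around these genes, a list of 15 partners of the plasminogen system was examined, of which 12 were tested, 9 rose and 2 fell, with 5 higher and 1 lower by the DEG rule. SERPINB2, counted among the 9 and the 5, reached the filter's level in 0 shNC libraries and entered the test through its shNUF2 libraries. Over all genes tested these shares were 33.9%, 33.8%, 9.41% and 4.16%. The list was drawn up with earlier results of these data known, so its distance from these shares is no independent result. Serpins that inhibit plasminogen activators were among those that rose. SERPINB2, also called PAI-2, had 0 reads with shNC, against 79, 56 and 66 with shNUF2, 76.5-fold higher against 3 counts over the shNC group. SERPINE2, protease nexin-1, had 733, 706 and 749 reads with shNC, against 2374, 2185 and 2559 with shNUF2 (log2 fold change 1.89, SE 0.06). SERPINF2, which blocks plasmin itself, had 19, 15 and 19 reads with shNC, against 43, 33 and 19 with shNUF2. Fitted over all libraries, its log2 fold change was 1.04 (SE 0.36, adjusted p = 0.0127 by edgeR), with overlapping groups, and it missed the limit of the DEG rule with the replicate number as a block (0.99). Its adjusted p no longer passed without shNC replicate 2 (0.92, adjusted p = 0.0528) and without shNUF2 replicate 1 (0.74, adjusted p = 0.12). S100A10, a surface receptor of plasminogen, rose with 2901, 3047 and 3533 reads with shNC, against 6306, 5801 and 6572 with shNUF2 (1.17, SE 0.04), and its binding partner ANXA2 rose by 0.94 (0.04). F3, tissue factor, the starter of coagulation, rose by 1.68 (0.06), and LRP1, which clears complexes of activator and inhibitor, by 0.61 (0.06). VTN, vitronectin, a matrix ligand of PLAUR, fell with a log2 fold change of -1.37 (0.13), and MRC2, a collagen receptor that associates with PLAUR, fell with -0.80 (0.07). PLG, plasminogen, had at most 1 read in a library, so that the substrate of the activators was nearly absent from these transcripts.

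All 4 TIMPs were tested, and TIMP1 and TIMP3 rose, TIMP4 fell and TIMP2 did not pass. TIMP3 (ENSG00000100234, chromosome 22 from 32801705 to 32863041, plus strand), which binds to the matrix and also inhibits ADAM17 and several ADAMTS enzymes, had 404, 329 and 483 reads in the shNC libraries, against 1385, 1305 and 1395 in the shNUF2 libraries. The groups were wide apart, with a log2 fold change of 1.94 (SE 0.08, adjusted p = 3.47e-17 by edgeR's quasi-likelihood test). TIMP1, the most abundant member, had 2749, 2829 and 3542 reads with shNC, against 3599, 3565 and 3835 with shNUF2. Its raw counts nearly met, while the normalized counts were 192 ± 14.5 CPM with shNC and 265 ± 9.75 CPM with shNUF2 (SD, n = 3), without overlap. TIMP1 thus had a log2 fold change of 0.47 (SE 0.05, adjusted p = 5.98e-09 by the same test). TIMP4 moved the other way, with 85, 101 and 129 reads with shNC, against 31, 46 and 50 with shNUF2. TIMP4 had a log2 fold change of -1.11 (SE 0.21, adjusted p = 3.87e-05 by edgeR), and -0.95 without shNUF2 replicate 1, which no longer met the DEG rule. TIMP2, which takes part in the activation of MMP2 by MMP14, had 297 ± 15.5 CPM with shNC and 298 ± 2.77 CPM with shNUF2 (SD, n = 3). The log2 fold change of TIMP2 was 0.01 (SE 0.04, adjusted p = 0.891 by edgeR).
The 250 bases before the RefSeq start of TIMP3 (GRCh38.p14, plus strand, chr22:32801455-32801704) are printed because TIMP3 had the largest rise of an inhibitor among the members. Neither TATAAA nor the AP-1 word is in them, so nothing stands in capitals.
TIMP3: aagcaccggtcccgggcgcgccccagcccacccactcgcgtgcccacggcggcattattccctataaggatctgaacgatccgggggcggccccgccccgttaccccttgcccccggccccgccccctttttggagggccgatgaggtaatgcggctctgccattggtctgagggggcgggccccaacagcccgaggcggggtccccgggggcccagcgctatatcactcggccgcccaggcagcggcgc
Summed per gene length, the 4 TIMPs were at 202, 187 and 208 FPKM in the shNC libraries and at 255, 266 and 250 FPKM in the shNUF2 libraries. The 23 MMPs were at 54.5, 49.4 and 50.9 FPKM with shNC and at 74.3, 69.6 and 71.5 FPKM with shNUF2. In every library the inhibitors were thus above the MMPs in summed level, and both sums were higher in every shNUF2 library than in any shNC library. The higher MMP sum rested mainly on MMP1, whose share of it was 0.681% with shNC and 26.2% with shNUF2, and is no shift of the family.

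**Figure D4:**
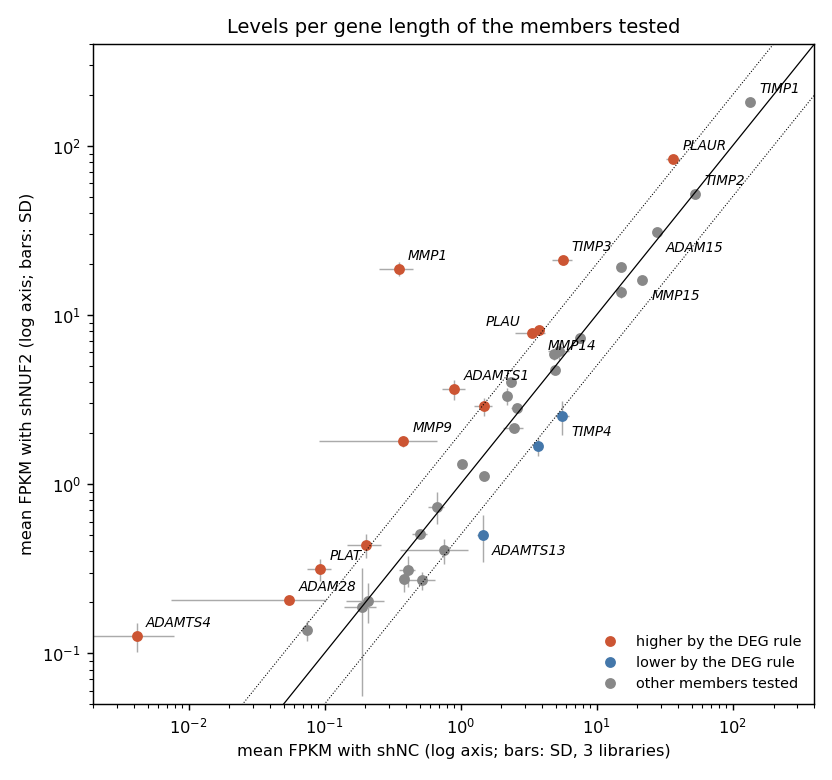
Mean FPKM of the 40 members tested with shNC (horizontal, log axis) and with shNUF2 (vertical, log axis), with SD bars over 3 libraries, a solid line at equal levels and dotted lines at a 2-fold difference. MMP1 is farthest above the line among members over 10 FPKM with shNUF2 (0.351 to 18.8 FPKM), and TIMP1 and PLAUR are at the top of the range.

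A list of 15 activators and inhibitors of MMPs had 11 genes tested, of which 4 rose and 4 fell, near the 67.6% of all genes tested that did either. THBS1, thrombospondin 1, which binds MMPs and limits their activation, had 113, 120 and 144 reads with shNC, against 443, 473 and 497 with shNUF2. The groups were well apart (log2 fold change 2.10, SE 0.10, adjusted p = 1.24e-15 by edgeR's quasi-likelihood test). PCSK6, a proprotein convertase that cleaves zymogens, fell from 96.6 ± 8.50 to 47.3 ± 6.26 CPM (SD, n = 3), with a log2 fold change of -1.03 (0.08), and its relatives FURIN and PCSK7 fell by 0.27 and 0.30 on the log2 scale. CD63, a tetraspanin that binds TIMP1 at the cell surface, rose by 0.75 (0.04). RECK, a membrane-anchored inhibitor, had 0.12 (0.17), and BSG, known as EMMPRIN for inducing MMPs in neighbouring cells, had -0.04 (0.04), and neither passed the test.

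Of the 10 ADAMs tested, 5 rose and 1 fell, beside 67.6% of all genes tested that did either. Only ADAM28 met the DEG rule, where 9.41% of all genes tested were higher and 4.16% lower. The ADAMs with the highest levels were ADAM15 at 27.7 ± 0.934 FPKM with shNC and 31.0 ± 1.61 with shNUF2, followed by ADAM9 at 15.1 ± 0.219 and 19.1 ± 0.404 (SD, n = 3). ADAM15, which binds integrins through its disintegrin domain, had 2644, 2754 and 3125 reads with shNC, against 2649, 2768 and 3170 with shNUF2. The small change of ADAM15 was 0.20 on the log2 scale (SE 0.05, adjusted p = 0.000472 by edgeR's quasi-likelihood test). ADAM9 rose by 0.38 (0.04) and ADAM17, the sheddase of TNF and of several EGF receptor ligands, by 0.30 (0.07) on the log2 scale. ADAM10, which cleaves Notch receptors and cadherins, had 1727, 1959 and 1989 reads with shNC, against 1703, 1450 and 1751 with shNUF2. The groups overlapped once normalized, with a log2 fold change of -0.02 (SE 0.05, adjusted p = 0.728 by edgeR). ADAM12 and ADAM8, metalloproteinases found raised in many tumours, were at -0.03 (0.07) and 0.16 (0.12), and neither passed. Of the ADAMs without a working catalytic site, ADAM22, a receptor of LGI proteins in neurons, fell with -0.39 (0.11), and ADAM11 had 0.18 (0.24) without passing the test.
ADAM28, a lymphocyte-type ADAM, had 11, 0 and 13 reads with shNC, against 28, 24 and 29 with shNUF2. The shNC library at 0, replicate 2, stands apart from the others of its group. The log2 fold change was 1.93 (SE 0.49, adjusted p = 0.00105 by edgeR), and 1.34 with an adjusted p of 0.00727 without shNC replicate 2. ADAM28 reached the filter's level in 2 shNC libraries and needed its shNUF2 libraries to enter the test over all libraries. That test is therefore given as a description. ADAM32, expressed mainly in testis, had 10, 12 and 13 reads with shNC, against 17, 17 and 24 with shNUF2, an edgeR log2 fold change of 0.91 (SE 0.38, adjusted p = 0.0374). With the replicate number as a block its adjusted p was 0.0593, and leaving out any 1 library raised it to between 0.0535 and 0.131. The gene begins 1.54 kb after the end of ADAM9 on the same strand, at a much lower level.

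Of 13 genes for the maturation of ADAM10 and ADAM17, all were tested, 6 rose and 3 fell, near the 67.6% of all genes tested that did either. RHBDF1 (iRhom1), which escorts ADAM17 to the cell surface, rose by 0.70 (0.07) on the log2 scale, FRMD8, its stabilizer, by 0.30 (0.05), and RHBDF2 (iRhom2) had -0.28 (0.13) without passing. Tetraspanins of the TspanC8 group, which guide ADAM10, were split. TSPAN5, with 3, 7 and 9 reads with shNC, against 23, 11 and 22 with shNUF2, reached the filter's level in 0 shNC libraries and had to differ once tested. Its fitted log2 fold change was 1.73 (SE 0.47). TSPAN15 rose by 0.46 (0.09) and TSPAN14 by 0.20 (0.05), while TSPAN17, TSPAN33 and TSPAN10 did not pass.

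Of 12 ADAMTS genes tested, 5 rose and 3 fell, near the 67.6% of all genes tested that did either. By the DEG rule 4 were higher and 2 lower, beside 9.41% and 4.16% of all genes tested. The 3 that rose among the hyalectanases, which cut aggrecan and versican, were ADAMTS1, ADAMTS9 and ADAMTS4, the last through a test it entered by its shNUF2 libraries alone. ADAMTS1 had 113, 99 and 93 reads in the shNC libraries, against 348, 397 and 362 in the shNUF2 libraries. The groups were clearly apart, at 6.52 ± 1.30 and 26.8 ± 3.35 CPM (SD, n = 3), with a log2 fold change of 2.05 (SE 0.13, adjusted p = 3.28e-13 by edgeR's quasi-likelihood test). ADAMTS5, which lies 72.5 kb from ADAMTS1 on chromosome 21, had 50, 72 and 66 reads with shNC, against 35, 49 and 43 with shNUF2. Its log2 fold change was -0.37 (SE 0.24, adjusted p = 0.17 by edgeR) and did not pass. ADAMTS4 (aggrecanase 1) had 1, 0 and 1 reads with shNC, against 14, 18 and 23 with shNUF2. The ratio of its normalized group sums was 31.4 (exact 95% interval of the counts from 8.29 to 266).
ADAMTS9 had 21, 42 and 40 reads with shNC, against 75, 59 and 60 with shNUF2, a log2 fold change of 1.11 (SE 0.26, adjusted p = 0.000405 by edgeR). It was under the limit of the DEG rule without shNC replicate 1 (0.92) and without shNUF2 replicate 1 (0.97). ADAMTS15, the hyalectanase with the highest FPKM in shNC cells (in shNUF2 cells it was below ADAMTS1), had 160, 248 and 251 reads with shNC, against 157, 163 and 189 with shNUF2. For ADAMTS15 the log2 fold change was -0.18 (SE 0.13, adjusted p = 0.232 by edgeR), and without shNC replicate 1 it was -0.30 with an adjusted p of 0.0431. ADAMTS20 fell, with 43, 78 and 63 reads with shNC, against 31, 27 and 27 with shNUF2 (log2 fold change -0.91, SE 0.26, adjusted p = 0.00346 by edgeR). It met the DEG rule without shNC replicate 1 (-1.06) and, narrowly, without shNUF2 replicate 1.

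Outside the hyalectanases, ADAMTS13 and ADAMTS10 fell and ADAMTS6 and ADAMTS16 rose. ADAMTS13, the protease that trims von Willebrand factor, had 126, 117 and 144 reads in the shNC libraries, against 52, 26 and 43 in the shNUF2 libraries. ADAMTS13 had a log2 fold change of -1.49 (SE 0.21, adjusted p = 5.92e-07 by edgeR's quasi-likelihood test), and REXO4, which overlaps it on the opposite strand, had -0.30 (0.07). ADAMTS10, known for its part in fibrillin microfibrils, had 310, 320 and 358 reads with shNC, against 129, 111 and 164 with shNUF2, without overlap. The log2 fold change of ADAMTS10 was -1.10 (SE 0.12, adjusted p = 4.44e-09 by the same test). ADAMTS6, its closest relative, moved the opposite way, with 190, 164 and 241 reads with shNC, against 389, 294 and 359 with shNUF2. Its log2 fold change of 1.00 (SE 0.12, adjusted p = 4.54e-08 by edgeR) lies at the limit of the DEG rule, which it missed without shNC replicate 2 (0.87) and without shNUF2 replicate 1 (0.89). With the replicate number as a block, library totals (0.96), no filter (0.97) and both limma fits (0.65 and 0.92) ADAMTS6 also missed the limit. ADAMTS16 had 185, 190 and 228 reads with shNC, against 296, 262 and 257 with shNUF2 (log2 fold change 0.63, SE 0.12). ADAMTS7 had 0.04 (0.21), and ADAMTS14, the only procollagen N-propeptidase tested, had -0.46 (0.30, adjusted p = 0.185 by edgeR), although its libraries did not overlap. Of the ADAMTS-like proteins, which share the ancillary domains but lack the protease, 7 were found by symbol and 5 were tested. ADAMTSL5 fell from 26.1 ± 3.03 to 12.4 ± 0.0510 CPM (SD, n = 3), with a log2 fold change of -1.07 (0.11). PAPLN fell with -0.78 (0.12), and THSD4 rose by 0.45 (0.06).

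**Figure D5:**
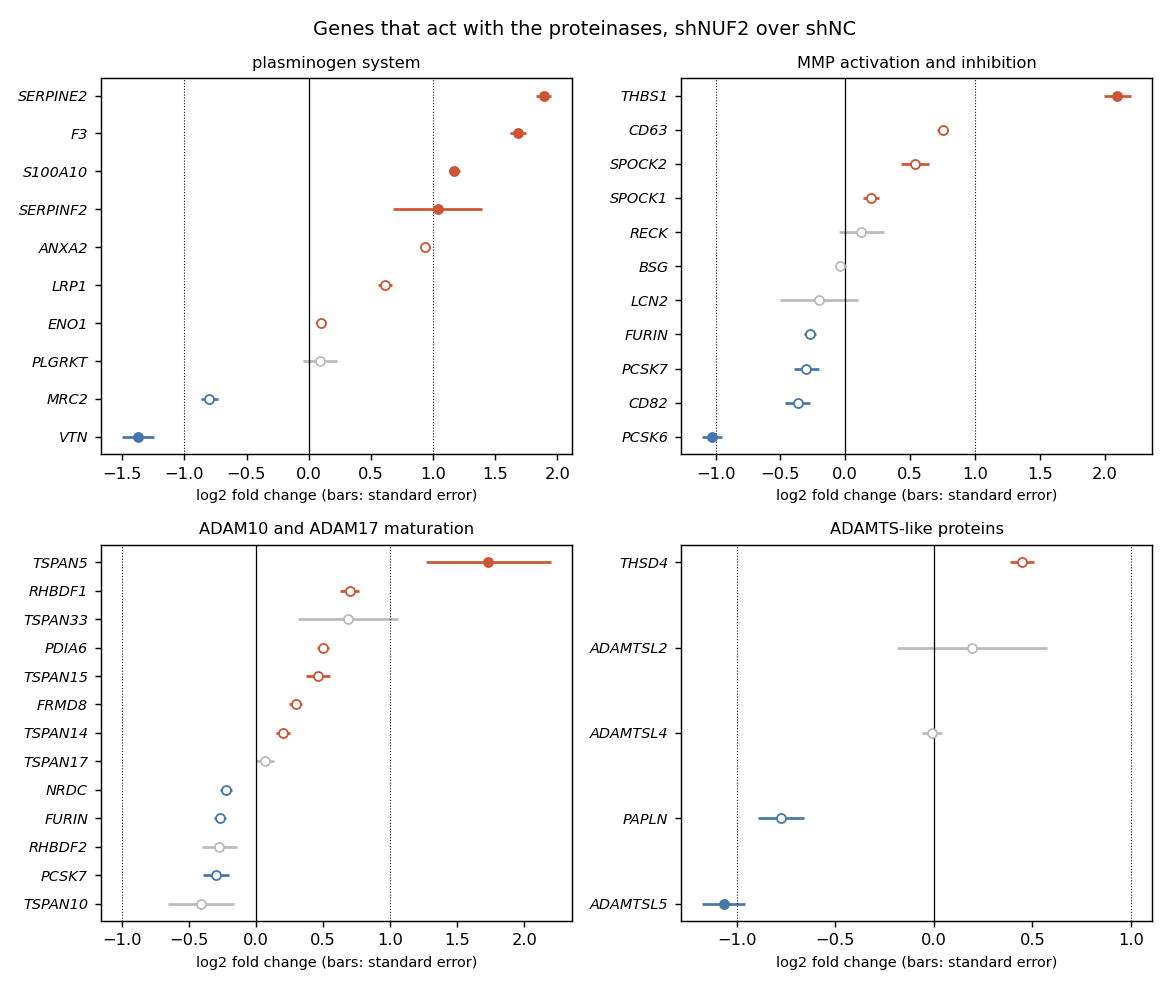
Log2 fold changes, shNUF2 over shNC, with standard errors, of the tested genes reported here from the 4 partner lists, in the colours of the plot by role. SERPINB2, at 0 reads in every shNC library, is left out, and the plasminogen system panel runs from VTN at -1.37 to SERPINE2 at 1.89.

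The 29 members without a test never exceeded 15 reads in a library. Of these, 8 had 0 reads in all libraries, namely MMP8, MMP20, MMP26, MMP27, ADAM7, ADAM29, ADAMTS3 and ADAMTS19, and 8 more had at most 3 reads in any library. The remaining 13 include MMP10, MMP13, MMP12, MMP7 and MMP16 described above. ADAMTS8, which lies 20.4 kb from ADAMTS15, had 5, 6 and 8 reads with shNC, against 1, 0 and 2 with shNUF2, a ratio of 5.55 in favour of shNC (exact 95% interval of the counts from 1.63 to 29.3). ADAMTS12 had 1, 0 and 0 reads with shNC, against 5, 6 and 0 with shNUF2, with overlapping groups and a ratio of 12.6 (exact 95% interval of the counts from 1.83 to 541). These intervals cover counting error only.

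Markers of cell types other than ovarian carcinoma were low but not level between the groups. The summed level of 5 endothelial markers was 2.13 to 3.45 CPM with shNC and 4.82 to 6.46 CPM with shNUF2, where CDH5 went from 1, 1 and 4 reads to 15, 19 and 27 and TEK from 1, 6 and 2 to 19, 19 and 15. PECAM1, the endothelial marker with the most reads, was at 46, 24 and 49 and then 28, 43 and 32, and KDR had 1 read in all. For 6 leukocyte markers the sums were 0.211 to 0.872 and 1.80 to 2.39 CPM, with PTPRC at 0, 1 and 0 reads and then 6, 11 and 6, CD14 at 0, 3 and 1 and then 10, 6 and 11, and MS4A1 at 0 throughout. For 8 fibroblast markers they were 84.0 to 90.6 and 69.0 to 76.5 CPM, mostly from COL1A1, with DCN at 65, 40 and 67 reads and then 130, 104 and 117, COL3A1 at 1, 0 and 2 and then 15, 15 and 5, PDGFRA at 0 reads throughout and LUM and THY1 at 2 reads or fewer in any library. The part of such transcripts in the results above was not tested. Of the 15 members that met the DEG rule, 11 overlap another annotated gene on the opposite strand, as do 16 of the 25 tested members that did not meet it.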

How the data were processed

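RNA of OVCAR3 cells with shNC or shNUF2 was converted to libraries with a stranded mRNA kit and sequenced on an Illumina NovaSeq instrument. The submitters' processing notes name cutadapt, HISAT, HTSeq and the build GRCh38.p13, without versions or roles. The read filters and the annotation release are not given in the sources used here. Reads shared by paralogs or overlapping genes may therefore have been split or dropped unseen. The authors deposited raw read counts per gene, and FPKM values that equal the count divided by gene length and library total, up to the scale of the unit, to a relative deviation of at most 2.71e-07. Library totals were 13057534 to 16995452.

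The test was run in edgeR 4.0.16 under R 4.3.3 (filterByExpr, TMM, quasi-likelihood test, 6 libraries, no covariate, Benjamini-Hochberg adjustment over 12874 genes). Standard errors are the log2 fold change divided by the root of the F statistic. The DEG rule asked for a change beyond 1 on the log2 scale with an unadjusted p under 0.05, the study's limits read on the log2 scale. Where a group had 0 reads, the fold was taken against 3 counts over that group, without the counting error of the other group. Where a group had 1 to 3 reads, an exact 95% interval of the counts is given. Named are the members that met the DEG rule, PLAU, PLAUR, PLAT, the TIMPs, the highest member of each role group by FPKM and the partners that met the rule; other genes were named after their values were seen. Values of 2 genes, 1 of them counted in the plasminogen list, are not reported here. The members and lists were chosen with earlier results of these data known. All 69 members have an entry in GENCODE release 29, used for overlaps, and 41 matched RefSeq promoter sequences.

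Alternatives were DESeq2 1.42.0, RLE size factors, library totals, 2 other filters, the replicate number as a block, the omission of each library, limma 3.58.1 on log2(FPKM + 1) and log2(FPKM + 0.1), and edgeR's TREAT test. Tested on simulated counts of 12874 genes with 200 changed, edgeR recovered 199, DESeq2 194 and limma 184. The changed genes there were far fewer than in the data, had no low counts and were given large shifts. They were called by adjusted p with a change beyond 1 on the log2 scale. The recovery therefore says little of the members with few reads or of the DEG rule. Libraries of a group differed beyond sampling noise, with a chi-square per degree of freedom from 2.65 to 4.37. Python 3.11.15 was used for the other steps.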

Additional observations from a re-analysis of the deposited data

How the results depend on the processing

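NUF2 was lower under every alternative, with log2 fold changes from -1.60 to -1.42, and from -1.60 to -1.44 when single libraries were omitted. The counts of members changed most with limma on log2(FPKM + 1) and under TREAT, which tests for a change beyond log2 1 and was read by its adjusted p: each gave 6 members higher and 0 lower, in place of 12 and 3 by the DEG rule. A pseudocount of 1 FPKM compresses the change of low genes. Omitting 1 library at a time, 10 to 12 members were higher and 3 to 4 lower by the DEG rule, and 18 to 19 rose and 6 to 7 fell by adjusted p. DESeq2 and the fit with no filter each called 15 members higher by the DEG rule, among them MMP10, MMP13 and ADAMTS12, which the filter removed.

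Libraries with the same replicate number did not deviate together (correlations of their deviations across genes of 0.02, 0.00 and -0.03). With the replicate number as a block, 11 members were higher and 3 lower by the DEG rule, the log2 fold change of ADAMTS6 falling just under 1, and 18 rose and 6 fell by adjusted p, since ADAM32 (adjusted p = 0.0593) and MMP28 (0.0553) no longer passed by edgeR. The block changed no other call of a member. Over the genes named by the rule in the methods, 480 of the recomputed values kept their side of the threshold, 5 passed it anew and 2 no longer did, and 0 called values reversed. Among the other members, ADAM32 lost its call in 11 settings and MMP28 in 8, and MMP24 passed in 4 and MMP17 in 1. ADAMTS4, MMP11, MMP25 and TSPAN5 had no value with the filter of a mean of 1 CPM. With few reads, counting limits what can be said of PLAT, ADAM28, ADAMTS4, MMP10 and MMP13.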

Other observations

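TIMP1, TIMP3 and TIMP4 each lie within a synapsin gene on the opposite strand, SYN1, SYN3 and SYN2, genes of synaptic vesicles that were named after the overlap had been seen. SYN3 had 5, 2 and 12 reads with shNC, against 1, 4 and 0 with shNUF2, where TIMP3 had 1305 or more in every shNUF2 library. SYN1 was at 0 in all shNC libraries and had 2, 1 and 2 reads with shNUF2. SYN2 had 24, 15 and 16 reads with shNC, against 5, 9 and 13 with shNUF2, a log2 fold change of -0.84 (SE 0.44, adjusted p = 0.0942 by edgeR's quasi-likelihood test), beside -1.11 for TIMP4.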
